A study of Mus musculus with 8 samples.

Results

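The regions described here are 526 of 45402 distinct autosomal regions of open chromatin (1.16%). They were chosen by their read levels as the regions most open in regulatory T cells (Tregs) of male visceral adipose tissue (VAT), the fat around the abdominal organs. Levels are in CPM, the counts in a region per 1000000 counts of that library over all autosomal regions. A region was taken when both male VAT Treg libraries exceeded all 6 other libraries, their mean was at least 2 CPM and at least 2 times the mean of each other group, and the female VAT Treg mean was no more than 25% above the spleen Treg mean. The levels of male VAT Tregs over the other groups, and of female VAT Tregs against spleen Tregs, are therefore given as descriptions without a test. The first of these limits alone was met by 9.29% of autosomal regions.

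The series measured chromatin accessibility by ATAC-seq, in which a transposase inserts sequencing adapters into open DNA, to compare Tregs between the sexes. The 8 libraries form 4 groups of 2: Foxp3-RFP+ Tregs of male VAT, Foxp3-RFP+ Tregs of female VAT, RFP- CD4 T cells of male VAT, and Foxp3-RFP+ Tregs of male spleen. All came from C57BL/6 mice in which a red fluorescent protein (RFP) reports Foxp3, and each library held cells from a pool of 3 mice. No age or treatment is given in the sources used here. Replicates 1 and 2 of the male VAT Tregs had 15037210 and 9209908 autosomal counts. Those of the female VAT Tregs had 9811154 and 8235576, the VAT CD4 cells 5669084 and 7155017, and the spleen Tregs 8118371 and 15630184. Values below keep that order, replicate 1 before replicate 2.

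Tregs restrain other immune cells and depend on the transcription factor Foxp3. Those resident in visceral fat are known for the nuclear receptor PPARγ, the IL-33 receptor ST2 (encoded by Il1rl1) and the inhibitory receptor KLRG1, and they are known to differ between male and female mice. An open region away from a gene's start is often an enhancer, a stretch where transcription factors bind to regulate a gene that may lie far off. The deposited table assigns each region to a gene, and a region "at" a gene below is one so assigned.

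The identity of the cells was checked on Foxp3, which lies on the X chromosome and so outside the selection. Its 6 regions summed to 89.2 and 54.5 CPM in male VAT Tregs, 114 and 114 CPM in female VAT Tregs, 35.1 and 39.6 CPM in VAT CD4 cells, and 56.0 and 70.3 CPM in spleen Tregs. All 6 Treg libraries lay above both libraries of RFP- cells, without correction for X copy number. Ctla4, another Treg gene, gave 65.6 and 91.7 CPM in VAT CD4 cells and at least 104 CPM in every Treg library. At Il2ra, Ikzf2 and Tnfrsf18 the groups were not separated. VAT CD4 replicate 2, with 61.1, 139 and 94.9 CPM, lay within the range of the Treg libraries there. None of the 24 regions at B cell marker genes, the 27 at myeloid, the 20 at CD8 and NK cell, the 25 at adipocyte or the 30 at stromal and endothelial marker genes was selected. With 1.16% of all regions selected, lists of this size would hold few or none, so these counts tell little about other cells. Markers such as Ms4a1, Csf1r, Lyz2 and Cd8a had no region assigned to them. The summed levels of the marker regions in male VAT Tregs, such as 537 and 432 CPM for B cell and 269 and 204 CPM for myeloid markers, lay within or close to the range of the other libraries, 410 to 563 and 208 to 266 CPM. Of the 74 regions at marker genes of group 2 innate lymphoid cells (ILC2), 7 were selected (9.46%, against 1.16% of all regions and 3.14% of those under 1000 bp), at Il1rl1, Il7r and Rora, which T cells also use. With long regions counted, this was the highest share among the 20 gene lists examined, just above the 9.22% of genes known from fat Tregs. Over regions under 1000 bp the counts were 7 of 57 for ILC2 markers and 19 of 151 for fat Treg genes. The ILC2 share is not the highest on that basis. The summed level of those 74 regions was 669 and 463 CPM in male VAT Tregs, 451 and 466 CPM in female VAT Tregs, 374 and 462 CPM in VAT CD4 cells, and 451 and 472 CPM in spleen Tregs. Replicate 1 of the male VAT Tregs stood above the other libraries and replicate 2 within their range. The defining ILC2 genes Il13, Il17rb and Ptgdr2 had no region assigned to them, and the part of such cells in the selected regions was not tested. In bulk libraries fewer cells of a type and a smaller signal per cell cannot be told apart.

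Some of the selected regions lie over a transcription start, and their DNA can be shown. Of 501 selected regions on chromosomes that the RefSeq promoter table covers, 20 touched a start (3.99%). This was close to the 4.33% of other regions under 1000 bp and far below the 20.6% of all autosomal regions. The promoter of a RefSeq gene, taken as 250 bases before to 50 after a start, was overlapped in 28 cases. Promoters of 4 genes known from T cells and fat are printed from RefSeq (GRCm38.p6), 5′ to 3′ on the gene's strand, with the bases inside the selected region in capitals. They were picked after their values were seen. Whether the deposited starts count from 0 or from 1 is not given in the sources used here, so the capitals may be off by 1 base.
Pparg, chr6:115360894-115361193, plus strand: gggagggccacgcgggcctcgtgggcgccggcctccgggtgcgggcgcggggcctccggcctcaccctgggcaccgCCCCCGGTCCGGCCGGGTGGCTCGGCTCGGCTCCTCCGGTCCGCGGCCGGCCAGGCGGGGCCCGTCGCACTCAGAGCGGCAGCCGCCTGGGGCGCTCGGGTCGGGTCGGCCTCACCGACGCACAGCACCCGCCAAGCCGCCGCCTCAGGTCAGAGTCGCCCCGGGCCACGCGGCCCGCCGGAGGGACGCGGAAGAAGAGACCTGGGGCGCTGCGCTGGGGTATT
Havcr2, chr11:46454681-46454980, plus strand: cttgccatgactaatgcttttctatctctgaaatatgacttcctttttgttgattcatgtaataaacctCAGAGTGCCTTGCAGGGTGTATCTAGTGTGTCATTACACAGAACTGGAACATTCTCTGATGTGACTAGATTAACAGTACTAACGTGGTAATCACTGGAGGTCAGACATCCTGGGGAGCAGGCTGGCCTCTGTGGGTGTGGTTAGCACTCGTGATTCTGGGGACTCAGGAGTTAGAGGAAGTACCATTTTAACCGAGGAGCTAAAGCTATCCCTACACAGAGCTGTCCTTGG
Ccr1, chr9:123968643-123968942, minus strand: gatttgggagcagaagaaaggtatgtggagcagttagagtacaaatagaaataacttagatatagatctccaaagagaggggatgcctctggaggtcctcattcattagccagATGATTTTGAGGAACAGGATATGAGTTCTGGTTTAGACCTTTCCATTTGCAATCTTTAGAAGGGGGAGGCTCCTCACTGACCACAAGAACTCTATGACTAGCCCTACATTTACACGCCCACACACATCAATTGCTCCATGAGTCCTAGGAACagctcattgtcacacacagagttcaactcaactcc
Il9r, chr11:32200230-32200529, minus strand: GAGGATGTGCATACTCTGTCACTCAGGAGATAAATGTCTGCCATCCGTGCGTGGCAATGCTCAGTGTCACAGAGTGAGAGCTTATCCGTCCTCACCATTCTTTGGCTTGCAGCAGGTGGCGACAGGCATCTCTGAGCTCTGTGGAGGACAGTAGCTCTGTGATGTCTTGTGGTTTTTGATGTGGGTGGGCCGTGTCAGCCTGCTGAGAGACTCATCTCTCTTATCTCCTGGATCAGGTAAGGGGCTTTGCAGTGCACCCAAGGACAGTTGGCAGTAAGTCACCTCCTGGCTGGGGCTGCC
The capitals cover 224 bases of the Pparg promoter, 231 of Havcr2, 152 of Ccr1 and all 300 of Il9r.

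Pparg encodes PPARγ, Havcr2 the inhibitory receptor TIM-3, Ccr1 a receptor for inflammatory chemokines and Il9r the receptor chain for IL-9. The Havcr2 region held 7.25 and 3.58 CPM in male VAT Tregs, 2.04 and 1.70 CPM in female VAT Tregs, 1.06 and 2.24 CPM in VAT CD4 cells, and 1.97 and 1.98 CPM in spleen Tregs. The Pparg region held 5.25 and 2.82 CPM in male VAT Tregs, 1.83 and 1.58 CPM in female VAT Tregs, 1.06 and 1.68 CPM in VAT CD4 cells, and 1.48 and 2.18 CPM in spleen Tregs. The Il9r region held 9.71 and 5.97 CPM in male VAT Tregs, 1.43 and 3.64 CPM in female VAT Tregs, 3.53 and 3.77 CPM in VAT CD4 cells, and 3.57 and 2.75 CPM in spleen Tregs. In all of these the lower male library was replicate 2, and the other groups overlapped one another. The Ccr1 region held only 3.19 and 1.09 CPM in male VAT Tregs, with replicate 2 close to the 1.06 CPM of the nearest VAT CD4 library.

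Short sequence motifs were searched on both strands of the 28 promoters, and each share is set beside the share of 32544 distinct RefSeq promoters of the same length. The letters of the RUNX motif, TGTGGT, stood in 8 of the 28 (28.6%, against 16.7%), among them Havcr2, Ccr1 and Il9r. GATA factors' AGATAA stood in 7 (25%, against 11.2%), AP-1's TGANTCA in 4 (14.3%, against 7.79%) and the ETS motif GGAAGT in 9 (32.1%, against 23.7%). The nuclear receptor motif AGGTCA stood in 5 (17.9%, against 16.2%), Pparg and Havcr2 among them, and the NF-kB consensus in 13 (46.4%, against 51.0%). With 28 promoters these shares are descriptions, and a match is not a bound site.

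The selected regions had higher levels in male VAT Tregs but were seldom without reads elsewhere. The median of the group means was 4.17 CPM in male VAT Tregs, 1.17 CPM in female VAT Tregs, 1.02 CPM in VAT CD4 cells and 1.32 CPM in spleen Tregs. The median ratio of the male VAT Treg mean to the next highest group was 2.71, with 203 regions at 3 times or more, 94 at 4 times or more and 49 at 5 times or more. Every library outside male VAT Tregs was under 1 CPM at 67 regions and under 0.5 CPM at 5. No level of closed chromatin was estimated, so how many were open in a single group only was not tested. The next highest group was spleen Tregs at 240 regions, female VAT Tregs at 148 and VAT CD4 cells at 138. The median region had 75 and 31 reads in the male VAT Treg libraries, against 11 and 10 reads for female VAT Tregs, 6 and 8 for VAT CD4 cells and 11 and 20 for spleen Tregs, which limits the precision of the low levels.

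**Figure D1:**
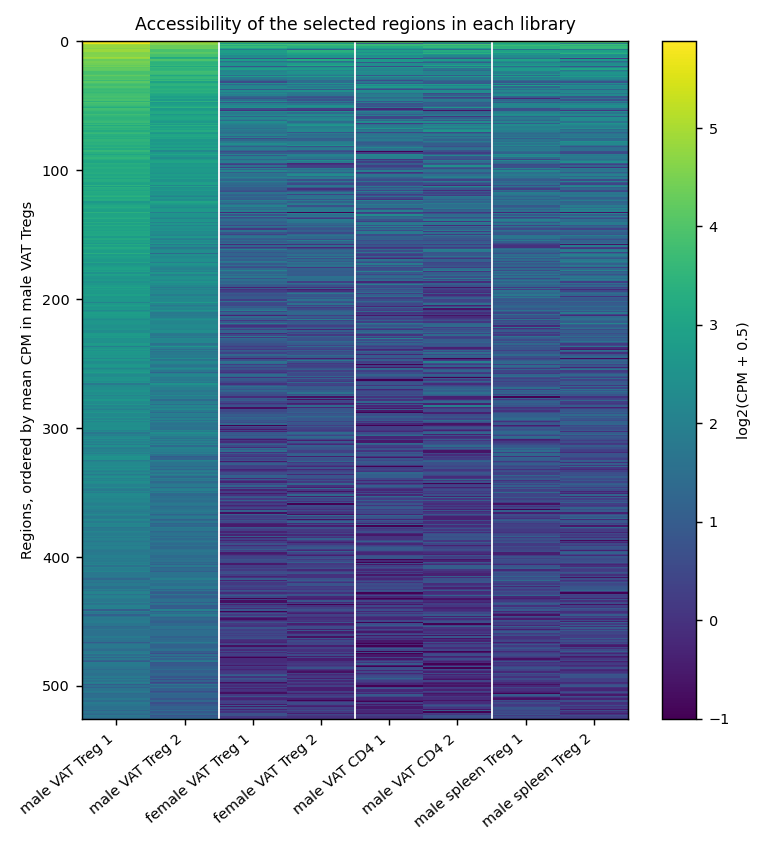
Accessibility of the 526 selected regions, 1 row per region in descending order of mean CPM in male VAT Tregs and 1 column per library, as log2(CPM + 0.5). Both male VAT Treg columns are brighter than the 6 others by construction, replicate 1 more so than replicate 2, and the other 3 groups look alike.

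The male VAT Treg libraries were unequal. Replicate 1 exceeded replicate 2 at 468 of the 526 regions (89.0%), with a median ratio of 1.45 and a range of 0.440 to 4.51. Among 8900 other regions under 1000 bp with a male VAT Treg mean of at least 2 CPM, replicate 1 was higher at 75.03%, with a median ratio of 1.29. Regions under 1000 bp took 5.53% of the autosomal counts in replicate 1 and 4.17% in replicate 2 of the male VAT Tregs, and between 3.55 and 4.26% in each of the 6 other libraries. The selected regions summed to 3507 and 2345 CPM in male VAT Tregs, 864 and 886 CPM in female VAT Tregs, 763 and 765 CPM in VAT CD4 cells, and 926 and 945 CPM in spleen Tregs. Replicate 2 alone thus had more than 2 times the sum of any other library, a result that the selection fixes in direction. With each region scaled within its width class, 323 regions met the limits, 317 of them among the 526.

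**Figure D2:**
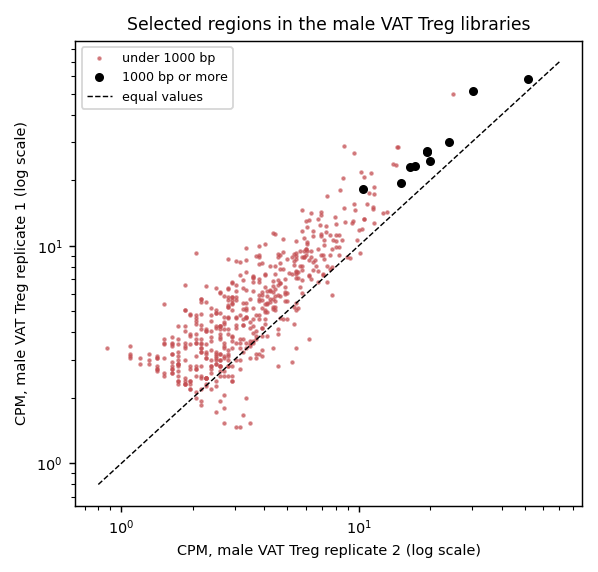
The 526 selected regions in the male VAT Treg libraries, CPM in replicate 1 against CPM in replicate 2 on log axes, with regions of 1000 bp or more in black and the dashed line marking equal values. At 468 regions the point lies above the line, and all 10 long regions are among them.

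Regions were also chosen with 1 library of a group and then read in the library left aside. That library took no part in the choice, but the 6 libraries it is set against were required to be low, so the shares are descriptions, and the background shares are not what a lack of difference would give. Chosen with replicate 2 of the male VAT Tregs alone, 362 regions met the limits, and replicate 1 exceeded all 6 libraries of the other groups at 329 of them (90.9%, with a background of 23.2% of all autosomal regions and 35.3% of those under 1000 bp). It was at least 2 times the mean of each other group at 292 (80.7%). Chosen with replicate 1 alone, 957 regions met the limits, and replicate 2 exceeded the 6 others at 735 (76.8%, with backgrounds of 19.6 and 19.005%) but reached 2 times at only 343 (35.8%). Replicate 2 thus reached the 2-fold limit less often than replicate 1 when it was the library left aside. The same exercise with female VAT Tregs on top gave 37.9% of 95 regions and 30.6% of 72. With VAT CD4 cells on top it gave 91.1% of 380 and 83.5% of 534, and with spleen Tregs 26.0% of 996 and 75.8% of 128. Under mirrored limits, 19 regions were most open in female VAT Tregs, and 414 regions were most open in VAT CD4 cells and 149 in spleen Tregs, for which no limit between other groups was set.

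**Figure D3:**
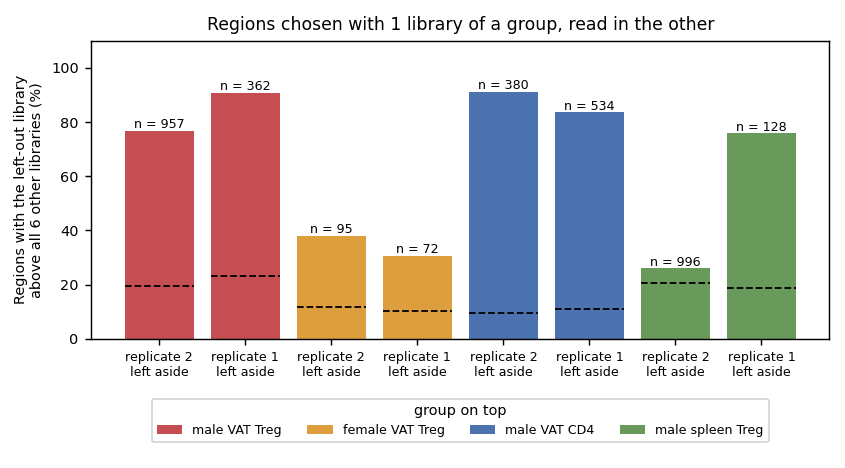
Bars give the share (%) of regions chosen with 1 library of a group in which the library left aside exceeds all 6 libraries of the other groups, for each group and each library left aside. The dashed lines give the same share over all autosomal regions, which is 19.6% for male VAT Treg replicate 2 and 23.2% for replicate 1, beside bars of 76.8 and 90.9%.

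Width set the selected regions apart from the table as a whole. Of the 526, 516 were under 1000 bp (98.1%), against 36.2% of all autosomal regions, and their median width was 205.5 bp, against 119 bp over all autosomal regions under 1000 bp. The share selected was 0.374% of regions of 77 to 99 bp, 8.39% of those from 200 to under 300 bp and 13.0% of those of 500 to 999 bp. Of 28985 regions of 1000 bp or more only 10 were selected (0.0345%). The table's narrowest regions carry few reads, with a median male VAT Treg mean of 1.44 CPM in the 77 to 99 bp bin, under the 2 CPM limit. How regions of both width classes came about is not given in the sources used here.

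**Figure D4:**
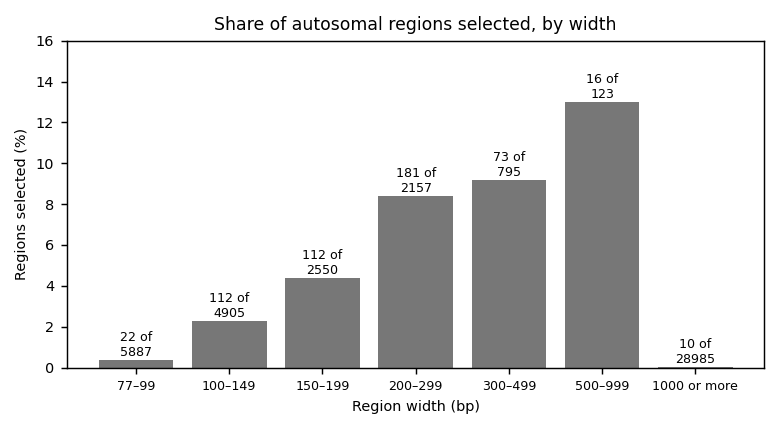
Share (%) of all distinct autosomal regions that was selected, in 7 bins of region width in bp, with the number selected and the number of regions above each bar. The share is highest at 500 to 999 bp (16 of 123) and near 0 at 1000 bp or more (10 of 28985).

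The 10 long regions had high levels, with male VAT Treg means of 14.3 to 55.2 CPM, and small ratios, from 2.03 to 2.64 over the next highest group. A region in Ndst3, which encodes an enzyme that modifies heparan sulphate, held 58.7 and 51.7 CPM in male VAT Tregs, 21.8 and 22.7 CPM in female VAT Tregs, 12.2 and 14.4 CPM in VAT CD4 cells, and 28.2 and 22.8 CPM in spleen Tregs. A region at Rab20, a small GTPase of endosomes, held 51.3 and 30.3 CPM in male VAT Tregs, 15.7 and 15.2 CPM in female VAT Tregs, 16.1 and 10.6 CPM in VAT CD4 cells, and 13.3 and 14.9 CPM in spleen Tregs. Both stretches held at least 10.6 CPM in every library, with the lower male library above all others. A region 77.6 kb from Tet2, an enzyme of DNA demethylation, held 23.3 and 17.3 CPM in male VAT Tregs and between 4.94 and 9.11 CPM in the 6 other libraries. At 332 long regions within 50 kb of the selected short ones, none of them selected, the median ratio of male VAT Tregs to the next highest group was 0.953. Over all 28975 long regions that were not selected, the 332 included, it was 0.906. Both male libraries exceeded all others at 41 of the 332 (12.3%), against 5.68% of the 28975.

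The selected regions lay somewhat farther from gene starts than other short regions. The median distance to a RefSeq start was 21.9 kb, against 18.6 kb for the other regions under 1000 bp, and 29.9% lay over 50 kb away, against 24.8%. For the selected regions under 1000 bp alone these values were 21.7 kb and 29.5%. Inside the assigned gene lay 277 of 515 (53.8%), against 55.8%. They often lay near one another: 154 had another selected region within 100 kb (29.3%), while 8.32% of the other short regions had a selected one that near. Within 10 kb the shares were 16.2 and 1.70%. These are descriptions, since regions on a chromosome are not independent.

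The 526 regions were assigned to 496 genes, with 7 left without a gene. Of these genes 425 had 1 selected region, 54 had 2, 11 had 3 and 6 had 4, the last being Dusp26, Kcna4, Klrg1, Sel1l, Thsd7b and Trpm1. An assigned gene can lie far off. The 4 regions at Sel1l lay 823 to 1378 kb from it, and those at Cblb, Maf and Nrp1 lay 384, 315 and 187 kb away. The run with most selected regions ended at Zfp503, a zinc finger gene of transcriptional repression, where 6 of the 7 regions between 21927829 and 21988527 on chromosome 14 were selected, 2 of them assigned to that gene and 4 to none. It was singled out after its values were seen. The strongest of these 6 held 8.71 and 5.43 CPM in male VAT Tregs, 1.53 and 0.486 CPM in female VAT Tregs, 1.94 and 1.26 CPM in VAT CD4 cells, and 0.739 and 1.92 CPM in spleen Tregs. All 4 regions of the table in a stretch of 30.4 kb of Thsd7b were selected, as were all 3 in 13.1 kb of Igfbp7, which encodes a secreted insulin-like growth factor binding protein. Each of these stretches, like the run at Zfp503, was drawn from its first to its last selected region. Its ends were thus selected by construction. In all, 7 regions were assigned to Thsd7b and 10 to Igfbp7.

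Some regions had large ratios and close male libraries. At Hhex, a homeobox factor of blood cell development, a region 6.77 kb from the gene held 4.12 and 4.56 CPM in male VAT Tregs, 0.306 and 0.243 CPM in female VAT Tregs, 0.529 and 0 CPM in VAT CD4 cells, and 0.739 and 0.0640 CPM in spleen Tregs. The lower male library was more than 3 times the highest other library. At E2f7, an E2F repressor of the cell cycle, the levels were 11.97 and 10.3 CPM in male VAT Tregs, 1.43 and 1.46 CPM in female VAT Tregs, 1.06 and 1.40 CPM in VAT CD4 cells, and 2.34 and 1.86 CPM in spleen Tregs. At Dusp26, a dual specificity phosphatase gene 63.7 kb away, they were 12.7 and 11.6 CPM in male VAT Tregs, 1.94 and 2.19 CPM in female VAT Tregs, 1.06 and 1.96 CPM in VAT CD4 cells, and 2.09 and 2.37 CPM in spleen Tregs. The ratio of male replicate 1 to 2 was 1.16 at E2f7 and 1.09 at Dusp26, and every other library was at 2.37 CPM or below.

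Other regions with large ratios had unequal male libraries. A region at Ky, known from skeletal muscle, held 50.1 and 24.9 CPM in male VAT Tregs, 5.61 and 5.34 CPM in female VAT Tregs, 1.59 and 2.80 CPM in VAT CD4 cells, and 6.77 and 3.13 CPM in spleen Tregs. One 24.96 kb from Mc3r, a melanocortin receptor of energy balance, held 28.5 and 14.7 CPM in male VAT Tregs, 3.26 and 1.82 CPM in female VAT Tregs, 3.70 and 2.52 CPM in VAT CD4 cells, and 2.59 and 2.94 CPM in spleen Tregs. In each, replicate 1 was about 2 times replicate 2, which in turn was more than 3 times every other library. The largest ratio to the next highest group, 12.1, was at a region assigned to the predicted gene 4921511C10Rik, with 26.6 and 9.55 CPM in male VAT Tregs and at most 2.34 CPM elsewhere. Rad51b, a gene of DNA repair by recombination, followed Hhex with a ratio of 10.4, and Fnip2, of cellular nutrient sensing, had 9.16.

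Genes known from fat Tregs held 19 of the 526 regions, 9.22% of the 206 regions at 27 genes of that list, against 1.16% of all regions and 3.14% of those under 1000 bp. The share of each list below is to be read beside these values, of which only the first counts long regions as the lists do. This list was drawn up with results of these libraries known and is not independent evidence. The 19 lay at Klrg1, Il1rl1, Pparg, Plin2, Ctsh, Prdm1, Fgl2, Ccr1 and Rora. The strongest of 4 regions at Klrg1, 7.58 kb from the gene, held 21.9 and 10.2 CPM in male VAT Tregs, 4.08 and 3.52 CPM in female VAT Tregs, 1.41 and 1.54 CPM in VAT CD4 cells, and 3.33 and 3.20 CPM in spleen Tregs. Female VAT Tregs lay just above spleen Tregs there, and both VAT CD4 libraries were lowest. At Il1rl1 3 regions were selected, and the one with closest male libraries held 2.79 and 2.61 CPM in male VAT Tregs, 1.12 and 1.21 CPM in female VAT Tregs, 0.706 and 0.280 CPM in VAT CD4 cells, and 0.985 and 1.02 CPM in spleen Tregs. A second Pparg region, 10.5 kb from a start, held 3.06 and 1.52 CPM in male VAT Tregs, 0.917 and 0.486 CPM in female VAT Tregs, no read in VAT CD4 cells, and 0.370 and 1.47 CPM in spleen Tregs. Replicate 2 of the male VAT Tregs barely exceeded replicate 2 of the spleen Tregs there.

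Plin2, whose product coats lipid droplets, had 2 selected regions, 19.99 and 16.4 kb from the gene. The first held 13.8 and 6.95 CPM in male VAT Tregs, 1.63 and 1.09 CPM in female VAT Tregs, 2.12 and 0.839 CPM in VAT CD4 cells, and 1.35 and 1.34 CPM in spleen Tregs. Inside Ctsh, which encodes the protease cathepsin H, 3 of the 4 regions in a stretch of 17.0 kb were selected, and the strongest held 13.1 and 6.19 CPM in male VAT Tregs, 1.02 and 0.729 CPM in female VAT Tregs, 0.353 and 1.26 CPM in VAT CD4 cells, and 1.11 and 1.92 CPM in spleen Tregs. Near Prdm1, the gene of the effector factor Blimp-1, 2 regions lay 148 kb away. The stronger held 11.3 and 6.95 CPM in male VAT Tregs, 2.14 and 3.76 CPM in female VAT Tregs, 1.94 and 1.40 CPM in VAT CD4 cells, and 2.09 and 4.54 CPM in spleen Tregs, where female VAT Tregs and spleen Tregs overlapped. The weaker held 4.06 and 1.85 CPM in male VAT Tregs, 0.306 and 0.364 CPM in female VAT Tregs, 0.353 and 0.419 CPM in VAT CD4 cells, and 0.616 and 0.768 CPM in spleen Tregs. Replicate 1 of the male VAT Tregs was the higher in all of these. Lipid and energy genes as a list held 6 of 166 regions (3.61%), at Plin2, Pparg, Abca1, a cholesterol exporter, and Cpt1a, which brings fatty acids into mitochondria for oxidation.

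**Figure D5:**
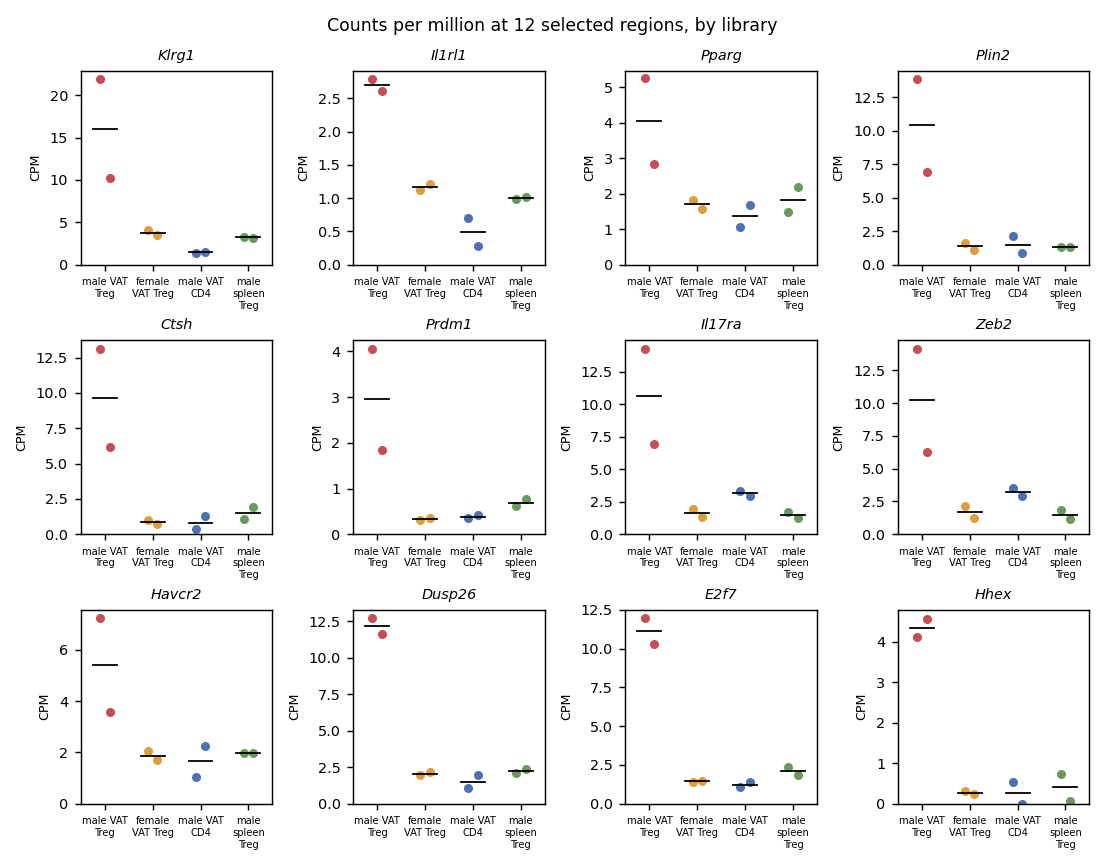
CPM in each library (points) and group means (lines) at 12 selected regions, each panel titled by the assigned gene, with group order male VAT Treg, female VAT Treg, VAT CD4 and spleen Treg and a linear axis from 0. The male VAT Treg points are close together at Il1rl1, Dusp26, E2f7 and Hhex and far apart in the other panels.

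Among cytokine receptors, 7 of 164 regions were selected (4.27%), at Il1rl1, Il7r and Il17ra. Il17ra, the receptor chain for IL-17, had a region 9.69 kb away with 14.3 and 6.95 CPM in male VAT Tregs, 1.94 and 1.34 CPM in female VAT Tregs, 3.35 and 2.94 CPM in VAT CD4 cells, and 1.72 and 1.28 CPM in spleen Tregs. At Il7r, the IL-7 receptor of naive and memory T cells, the strongest of 3 regions held 4.99 and 4.02 CPM in male VAT Tregs, 1.43 and 1.70 CPM in female VAT Tregs, 1.06 and 1.82 CPM in VAT CD4 cells, and 1.11 and 1.54 CPM in spleen Tregs. At Il17ra both VAT CD4 libraries lay above both libraries of each other Treg group, while in this Il7r region the 3 other groups overlapped. Cytokines and secreted effectors had 3 of 83 regions (3.61%). A region 5.72 kb from Il9, the gene of IL-9, held 9.38 and 4.78 CPM in male VAT Tregs, 1.53 and 1.34 CPM in female VAT Tregs, 1.23 and 1.82 CPM in VAT CD4 cells, and 1.23 and 1.54 CPM in spleen Tregs. Il9 and the Il9r promoter shown above thus both held a selected region, a pairing seen after the values were known. The Ifng region, 182 kb from that gene, held 6.78 and 7.38 CPM in male VAT Tregs, against 2.14 to 3.97 CPM in the others, and the last of the 3 lay at Fgl2, a suppressive secreted protein.

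Genes of T cell activation and effector differentiation held 9 of 196 regions (4.59%), at Havcr2, Ikzf2, Ikzf3, Prdm1, Runx1 and Zeb2. At Zeb2, a zinc finger factor of terminal effector differentiation, the leading of 3 regions held 14.2 and 6.30 CPM in male VAT Tregs, 2.14 and 1.21 CPM in female VAT Tregs, 3.53 and 2.94 CPM in VAT CD4 cells, and 1.85 and 1.15 CPM in spleen Tregs. Runx1, a core factor of T cell development, held 7.32 and 3.15 CPM in male VAT Tregs, 0.306 and 0.486 CPM in female VAT Tregs, 0.882 and 0.140 CPM in VAT CD4 cells, and 0.616 and 0.768 CPM in spleen Tregs. VAT CD4 cells came next at Zeb2, and no library outside male VAT Tregs reached 1 CPM at Runx1. The AP-1 and bZIP list had 3 of 97 regions (3.09%), at Jdp2, Crem and Maf. Jdp2, a repressor of AP-1, held 8.71 and 2.82 CPM in male VAT Tregs, 0.612 and 0.364 CPM in female VAT Tregs, 0.529 and 0.699 CPM in VAT CD4 cells, and 0.493 and 0.640 CPM in spleen Tregs. Here the male libraries differed by about 3 times, and the lower was more than 4 times every other.

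The remaining lists had few selected regions. T cell receptor signalling genes had 3 of 233 (1.29%), at Cblb, a ubiquitin ligase that restrains it, Dusp10, a phosphatase of MAP kinases, and Rasgrp1, an activator of Ras. NF-kB factors had 2 of 124 (1.61%), both in Nfkb1, with 5.05 and 1.85 CPM in male VAT Tregs, and at most 1.601 CPM elsewhere, at the stronger. Interferon regulatory factors and STATs had 2 of 83 (2.41%), both near Irf8, a factor of myeloid and B cells that T cells can also express. TNF receptors and costimulation had 1 of 98 (1.02%), in Cd28, the main costimulatory receptor. Chemokine receptors and adhesion genes had 3 of 141 (2.13%), Ccr1 and the hyaluronan receptor Cd44 among them. Nuclear hormone receptors had 4 of 149 (2.68%), at Rora, Nr3c1, Ncoa2 and Ncor1, and naive and lymphoid genes 4 of 94 (4.26%), with 3 of them at Il7r. Core Treg genes had 2 of 98 (2.04%), at Ikzf2, which encodes Helios, and Nrp1, a surface marker of thymic Tregs. Apart from that of naive and lymphoid genes, these shares lay between 1.02 and 2.68%, against 1.16% of all regions. The 3.14% of regions under 1000 bp is not a like background, since the lists hold long regions too. Only 67 of the 149 nuclear hormone receptor regions and 126 of the 233 at T cell receptor signalling genes were under 1000 bp.

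The other regions of the same genes were not selected, and male and female VAT Tregs were compared there. They are not free of the selection, since regions that missed a limit are among them, some narrowly. Others can have been left out only by the limit of female VAT Tregs to spleen Tregs, without which 947 autosomal regions met the rest. The counts are therefore descriptions. The comparison used edgeR's quasi-likelihood F test over 45709 regions with Benjamini-Hochberg adjustment, and calls are those with an adjusted p below 0.05. Of 2434 such regions tested, 114 were higher in male VAT Tregs and 3 lower (4.68 and 0.123%). Over all autosomal regions that were not selected the background was 1.33% higher and 0.758% lower. Among regions under 1000 bp, 85 of 1243 at these genes were higher (6.84%), against a background of 2.88%. At the fat Treg genes 8 of 176 other regions were higher (4.55%). Of the other regions of all these genes, fewer were called higher without male VAT Treg replicate 1 or either female VAT Treg library, and more without male replicate 2. The share called higher over all autosomal regions that were not selected moved the same way, and was the smaller in each of these fits. The share called lower was above that of all autosomal regions not selected without male or female replicate 2, and below it without male or female replicate 1. Among the selected regions themselves 335 of 521 tested were called higher and 0 lower. The selection used this contrast and nothing is read from that count. The 3.26% called in either direction over all regions is not a like background, since it includes the sex chromosomes.

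VAT CD4 cells were set against spleen Tregs. The selection did not compare these groups, but it bounded both from above by male VAT Tregs and spleen Tregs from below by female VAT Tregs, so counts and medians over the selected regions are descriptions. Of the 521 selected regions tested, 2 were higher and 9 lower in VAT CD4 cells by edgeR with Benjamini-Hochberg adjustment (2.11%), against a background of 3.96% of all regions, 2.07% higher and 1.89% lower, and 6.32% of the other regions under 1000 bp. The median log2 fold change was -0.17, against 0.00 over all regions and -0.08 over the other regions under 1000 bp. Without TMM scaling 1 was higher and 13 lower, while 561 of all regions were higher and 1371 lower, against 945 and 865 with it. The clearest was a region at 4933425H06Rik, with 5.64 and 6.15 CPM in VAT CD4 cells and 1.601 and 2.37 CPM in spleen Tregs (log2 fold change 1.67, approximate SE 0.35, edgeR adjusted p = 0.000417), a call kept in all 8 fits that left out 1 library. It was named for that call. The second Pparg region, with no read in VAT CD4 cells, was called lower there (edgeR adjusted p = 0.0231). That call was lost with DESeq2 (adjusted p = 0.118) and without either VAT CD4 library or spleen Treg replicate 2. The long Ndst3 region was called lower in VAT CD4 cells too (log2 fold change -0.78, SE 0.21, edgeR adjusted p = 0.0116), and it was lost without either VAT CD4 library or spleen Treg replicate 1. Fewer selected regions were called without any 1 VAT CD4, spleen Treg or female VAT Treg library, and so were fewer of all regions.

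Female VAT Tregs were also set against VAT CD4 cells, which shares the VAT CD4 libraries with the comparison before it and whose groups the selection bounded likewise. Of 521 selected regions, 8 were higher and 1 lower in female VAT Tregs (1.73%), against a background of 3.83%, 2.29% higher and 1.54% lower, and 6.59% of the other regions under 1000 bp. The median log2 fold change was 0.03, against -0.01 over all regions. Without TMM scaling 10 were higher and 1 lower, while 1344 of all regions were higher and 433 lower, against 1047 and 702 with it. At the Ky region female VAT Tregs were higher (log2 fold change 1.16, SE 0.35, edgeR adjusted p = 0.0309), with the levels given above. At Spin1, a reader of methylated histones 71.1 kb away, a region held 4.48 and 4.98 CPM in female VAT Tregs and 1.59 and 1.40 CPM in VAT CD4 cells (log2 fold change 1.54, SE 0.41, edgeR adjusted p = 0.0101). At Eed, a subunit of the Polycomb complex that methylates histone H3, a region held 4.08 and 3.64 CPM in female VAT Tregs and 0.882 and 1.68 CPM in VAT CD4 cells (log2 fold change 1.43, SE 0.44, edgeR adjusted p = 0.0405). At 4933425H06Rik female VAT Tregs were lower (log2 fold change -1.53, SE 0.36, edgeR adjusted p = 0.00245). Spin1 and Eed were named for these calls. With DESeq2 the adjusted p was 0.515 at Ky, 0.0717 at Spin1, 0.166 at Eed and 0.0228 at 4933425H06Rik. The Spin1 and Eed calls were lost without any 1 of the 4 libraries compared, that at Ky without either female VAT Treg library or VAT CD4 replicate 1, and that at 4933425H06Rik without female VAT Treg replicate 1. Fewer selected regions were called without any 1 female VAT Treg or VAT CD4 library, and so were fewer of all regions. DESeq2 with all libraries called 1 selected region (0.195%), against 1.61% of all regions.

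At the limit itself the values ran on without a gap. The 3 selected regions nearest to the 2-fold limit, at C2cd5, Kcna4 and Lrrn2, had ratios of 2.00 to the next highest group. Just outside it, regions at Fem1c and Ccdc6 had ratios of 1.99. At Ccdc6, a coiled-coil protein gene, the region averaged 6.06 CPM in male VAT Tregs, against 3.04 CPM in the next highest group.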

How the data were processed

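Per the labels, ATAC-seq libraries were made from sorted cells of 3 pooled mice each. The authors deposited raw counts per region for all 8 libraries, on mm10 (GRCm38), with no normalization. Tools listed in the submitters' processing notes are limma, featureCounts, HOMER 4.9 and Subread 1.6.2, without roles, and how regions were called is not given in the sources used here. The deposited log2 files per library were not used.

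The table's 62205 entries list regions once per assigned gene and were reduced to 46624 distinct regions, 45402 of them autosomal. CPM divide counts by each library's autosomal sum. Comparisons used 1 edgeR 4.0.16 quasi-likelihood fit (R 4.3.3) of all 8 libraries with trimmed-mean-of-M (TMM) scaling, filterByExpr and 4 residual degrees of freedom, with Benjamini-Hochberg adjustment over 45709 regions, and were tested on simulated data. The 45709 regions include those of the sex chromosomes, and so do the calls counted over all regions unless autosomal regions are named. SEs are the log2 fold change over the square root of F. DESeq2 1.42.0 was an alternative. As the labels do not say that pools were separate animals, p-values measure only the spread between libraries. No batch is labelled. Distances are to RefSeq starts (GRCm38.p6, chromosome 18 not used here) or, where a distance to a gene is given, to the nearest end of the assigned gene in RefSeq.

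Named are the genes of the 10 regions with the highest ratio of the lower male VAT Treg CPM + 0.5 to the highest other CPM + 0.5, the 10 with the highest mean, up to 3 regions for each of 20 gene lists (389 genes), genes with 4 or more regions and the 3 regions on each side of the 2-fold limit, passing over regions with only predicted genes (Gm with digits, names ending in Rik). Others were named after their values were seen, and some items under this rule are not reported here. The regions and lists were chosen with earlier results of these data known. Alternatives changed the scaling, limits, filter, test, replicate block and libraries.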

Additional observations from a re-analysis of the deposited data

How the results depend on the processing

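The number of regions that met the limits depended on the setting. It was 323 with scaling within width classes, 969 at a 1.5-fold limit, 203 at a 3-fold limit, 274 at a minimum of 4 CPM and 947 with no limit of female VAT Tregs to spleen Tregs. Leaving out 1 library gave 362 to 957 regions, the fewest without male VAT Treg replicate 1 (302 shared with the 526) and the most without replicate 2 (505 shared). TMM scaling gave 466 and a minimum of 1 CPM 640, both within 1.5 times of 526. Scaled within width classes, replicate 1 of the male VAT Tregs exceeded all others at 86.1% of the regions chosen without it, and replicate 2 at 87.3%.

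Calls fell with DESeq2's Wald test. In VAT CD4 cells against spleen Tregs it called 2 selected regions and 776 regions in all (edgeR 1810), and in female VAT Tregs against VAT CD4 cells 1 and 734 (edgeR 1749). In male against female VAT Tregs it called 135 and 488 (edgeR 1489), and 40 of the other regions of the same genes. Without 1 library edgeR called 3 to 14 selected regions and 768 to 2380 in all in the first of these comparisons, 0 to 12 and 619 to 2202 in the second, and 95 to 377 and 410 to 1582 in the third, where other regions of the same genes ranged from 29 to 187. A lone library left in a group is assumed there to vary like the others. Without TMM scaling the median log2 fold change of all regions moved to -0.15 in the first comparison and 0.11 in the second, and that of the selected regions to -0.31 and 0.14. The cause of these changes was not tested. No low-count filter left every count within 1.5 times.

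Over all regions, same-numbered deviations correlated at -0.137 to 0.0611 between groups. These values do not settle whether replicate numbers pair the libraries, since counting noise also enters them. With a replicate block edgeR called 9, 6 and 315 selected regions and 1543, 1477 and 1199 regions in all in the 3 comparisons, and 92 other regions of the same genes; the call at Ky had an adjusted p of 0.0510 there. With 2 libraries a group and 6 to 31 median counts per region outside male VAT Treg replicate 1, small differences at single regions were not detectable.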

Other observations

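The X chromosome, left out of the selection, gave 0 of 1083 regions under the same limits, computed with the same autosomal totals. X copy number differs between the sexes and was not corrected for. This makes the limits that involve female VAT Tregs harder to meet there, so the count cannot be set beside the autosomal shares. Among the autosomes the share of regions under 1000 bp that was selected ran from 1.33% on chromosome 11 to 4.71% on chromosome 18.

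A region at Mt1, the gene of the metal-binding protein metallothionein, overlapped its promoter and held 10.6 and 7.82 CPM in male VAT Tregs, 3.36 and 4.37 CPM in female VAT Tregs, 3.00 and 2.80 CPM in VAT CD4 cells, and 2.71 and 4.22 CPM in spleen Tregs. One over the promoter of Adam8, a membrane protease of leukocytes, held 11.5 and 4.34 CPM in male VAT Tregs, 2.04 and 1.34 CPM in female VAT Tregs, 1.76 and 1.26 CPM in VAT CD4 cells, and 3.20 and 2.30 CPM in spleen Tregs. All 3 regions in a stretch of 13.9 kb assigned to Proser1, at least 68.1 kb away, were selected, and the strongest held 6.58 and 3.04 CPM in male VAT Tregs, 0.306 and 0.729 CPM in female VAT Tregs, 0.176 and 0.140 CPM in VAT CD4 cells, and 1.23 and 0.384 CPM in spleen Tregs. The Proser1 stretch was drawn from its first to its last selected region, and 5 regions were assigned to that gene in all. Mt1, Adam8 and Proser1 were named after their values were seen.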
